A study of Mus musculus with 8 samples.

Results

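The Rap GTPases and the genes that switch them on and off were followed in 2 sorted fractions of mouse leukaemia cells. The set held 10 genes of the 18193 named on the array: the GTPases Rap1a, Rap1b, Rap2a, Rap2b and Rap2c, the exchange factors Rapgef1, Rapgef2 and Rapgef6, and the GTPase-activating proteins Rap1gap2 and Sipa1. Its members were all probe sets whose single gene symbol was one of these names, which gave 24 of 45101 probe sets. The 10 names were proposed with earlier results of the same arrays in view, so the genes count as chosen by their differences between the fractions. Those differences are given as a description, with no p-value; calls among them are counted only beside the share of all genes called.

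The cells came from the spleens of 4 mice with acute myeloid leukaemia driven by MLL-AF10, the fusion of the histone methyltransferase gene MLL with AF10. Flow sorting on the surface receptor c-kit (CD117) gave a c-kit-high fraction, CD117pos, and a fraction that the labels call both c-kit negative and low, CD117neg, with 1 array of each fraction from each mouse (n = 4 per fraction). Both fractions carried the same history: c-kit+ progenitors of bone marrow, transduced by retrovirus and immortalized, were given to syngeneic recipients, spelled CD57BL/6 in the labels, after sub-lethal irradiation, which leaves host blood cells alive. The sources used here do not say how old the mice were or whether the 4 leukaemias were separate clones. Array titles end in the numbers by which the mice are called here, _948, _951, _952 and _953.

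Rap proteins are small GTPases that bind effectors when loaded with GTP and release them once the GTP is hydrolysed. Exchange factors load GTP, and GTPase-activating proteins (GAPs) speed its hydrolysis. In blood cells Rap1 is best known for switching integrins to their adhesive state, which lets leukocytes stick and platelets aggregate, while Rap2 proteins bind kinases of the TNIK family.

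Array medians were 27.5 to 31.1 in CD117pos and 31.1 to 32.8 in CD117neg arrays. The CD117pos array of mouse _951 stood apart: its log2 values correlated with those of the other CD117pos arrays at 0.928 to 0.930, while correlations among CD117neg arrays lay between 0.978 and 0.988. Kit, which encodes the sorted receptor and checks the labels, averaged 751 ± 127 in CD117pos and 28.6 ± 9.73 in CD117neg arrays (SD, n = 4 each). Listed myeloid genes lay above the array medians in both fractions, except Itgam at 13.5 on the CD117pos array of mouse _951. They ran both ways. Mpo averaged 8583 ± 1656 in CD117pos and 1868 ± 461 in CD117neg arrays, and Cd33 1057 ± 470 and 3917 ± 625. Among 9 measured myeloid markers 6 were lower and 2 higher in CD117pos arrays by limma, beside 12.9% and 7.53% of all genes.

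Promoter sequences are shown for both GAPs, of which Rap1gap2 had the largest difference of the 10 genes, and for Rap1b, the GTPase with the smallest. They run from 250 bases before to 50 after an annotated transcript start in RefSeq (GRCm38.p6), 5′ to 3′, and capitals mark matches to the PU.1 motif GAGGAAGT, the cAMP response element TGACGTCA, the C/EBP motif TTGCNNAA or the GC box GGGCGG on either strand. Rap1gap2 has 4 annotated starts, of which a CpG-rich and a CpG-poor one are shown.
Rap1gap2, chr11:74522752-74523051, minus strand: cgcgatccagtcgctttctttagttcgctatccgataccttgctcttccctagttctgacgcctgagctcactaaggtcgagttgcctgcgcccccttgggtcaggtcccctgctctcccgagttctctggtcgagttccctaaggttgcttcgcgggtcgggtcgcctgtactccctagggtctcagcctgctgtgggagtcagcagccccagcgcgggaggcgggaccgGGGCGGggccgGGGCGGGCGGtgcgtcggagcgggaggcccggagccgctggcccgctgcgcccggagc
Rap1gap2, chr11:74558978-74559277, minus strand: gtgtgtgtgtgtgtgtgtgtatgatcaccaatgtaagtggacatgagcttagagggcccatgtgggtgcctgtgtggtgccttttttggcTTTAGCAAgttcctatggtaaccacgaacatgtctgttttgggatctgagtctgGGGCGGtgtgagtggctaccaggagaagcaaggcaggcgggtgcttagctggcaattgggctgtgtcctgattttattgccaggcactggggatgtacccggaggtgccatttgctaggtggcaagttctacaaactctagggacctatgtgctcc
Sipa1, chr19:5663658-5663957, minus strand: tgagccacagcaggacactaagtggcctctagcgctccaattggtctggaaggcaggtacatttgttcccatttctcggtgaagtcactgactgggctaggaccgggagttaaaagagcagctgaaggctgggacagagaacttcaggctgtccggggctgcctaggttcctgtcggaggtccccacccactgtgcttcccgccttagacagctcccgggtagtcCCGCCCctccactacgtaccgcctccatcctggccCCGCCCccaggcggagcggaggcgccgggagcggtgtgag
Rap1b, chr10:117845925-117846224, minus strand: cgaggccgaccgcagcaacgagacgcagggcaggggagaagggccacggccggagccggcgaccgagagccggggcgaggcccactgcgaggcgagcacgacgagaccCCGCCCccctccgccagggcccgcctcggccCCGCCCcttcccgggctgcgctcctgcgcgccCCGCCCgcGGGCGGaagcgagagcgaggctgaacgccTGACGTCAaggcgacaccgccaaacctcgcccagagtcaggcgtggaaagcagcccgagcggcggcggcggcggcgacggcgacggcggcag
The first Rap1gap2 window held 30 CpG dinucleotides and 3 GC boxes, a pair of which overlap. The second held 4 CpG, 1 GC box and 1 C/EBP match. The Sipa1 window held 16 CpG and 2 GC boxes, and the Rap1b window 48 CpG, 4 GC boxes and 1 cAMP response element. The median over all 32851 windows was 7 CpG.

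Of the 10 genes, 9 had a window in the table, 13 windows in all. A GC box was found in 11 of the 13, covering 8 genes, against 35.7% of all windows. Most of these 11 held more CpG than the median window, at 7, and the share over all windows was not matched for CpG. The Rapgef2 windows, with 4 and 8 CpG, held none. The PU.1 motif, named after a master regulator of myeloid cells, was found only in the Rap2c window (3.20% of all windows), the cAMP response element only in that of Rap1b (1.79%) and the C/EBP motif only in 1 of Rap1gap2 (10.8%). A further 8 motifs were searched on both strands. Of these, the ETS motif CCGGAAG occurred in Rapgef1 and Rapgef6 (8.86% of all windows), the box CCAAT in 4 genes (37.4%) and the NRF1 motif in Rapgef6 (0.971%). The E-box CACGTG, the Runx motif TGTGGTT, the AP-1 motif TGANTCA, the Egr motif GCGTGGGCG and the YY1 motif occurred in 0 of the 13 windows and in 7.15%, 5.27%, 7.81%, 0.612% and 0.633% of all windows. These are matches of letters and not sites, and the motifs, like the genes, were chosen with earlier results known.

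All 10 genes had a lower mean in the CD117pos than in the CD117neg fraction. Where a gene had several probe sets, the brightest on average across all 8 arrays stood for it. Differences are CD117pos minus CD117neg on the scale log2(intensity + 16), a scale that understates changes of dim probe sets, with the SE of a limma fit that kept the mouse as a block. By role, the differences were -1.50 to -0.41 for the 5 GTPases, -0.66 to -0.29 for the 3 exchange factors, and -3.98 and -1.31 for the 2 GAPs. The median was -0.87, against -0.01 over all 18193 genes and -0.06 over the 8535 genes with a mean intensity of 100 or more.

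In the fit over all probe sets 6 of the 10 genes lay past the threshold as lower in the CD117pos arrays (limma, adjusted p under 0.05), while 0 did as higher. Of all genes, 12.9% lay past it as lower and 7.53% as higher; among genes with a mean of 100 or more these shares were 22.4% and 13.3%. The 6 were Rap1a, Rap2a, Rap2b, Rap2c, Rap1gap2 and Sipa1. Over 16 settings, the fit described included, Rap2a, Rap2c and Rap1gap2 were past the threshold in 16, Rap2b in 13, Rap1a in 12 and Sipa1 in 9. The Sipa1 call ended after quantile normalisation, after centring, with pseudocounts of 1 or 64 and when any mouse but _951 was left out. The arrays of the 2 fractions did not overlap for 8 of the 10 genes, all lower in CD117pos, as they did not for 17.3% of all genes and 28.9% of those with a mean of 100 or more; the shares in the other direction were 10.4% and 17.0%. The 6 became 3 without mouse _948, without mouse _952 and without mouse _953, and 8 without the mouse block. Of all 45037 probe sets, 4892 were lower in the fit described. Leaving out those mice gave 1894, 2278 and 2044, and leaving out the block gave 5235. Nothing is read from these counts or from the calls over 16 settings, because the comparison was in view when the genes were chosen. All 4 mice showed the lower level for each of the 10 genes. In RNA of whole fractions, fewer cells of a type and less RNA per cell cannot be told apart.

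**Figure D1:**
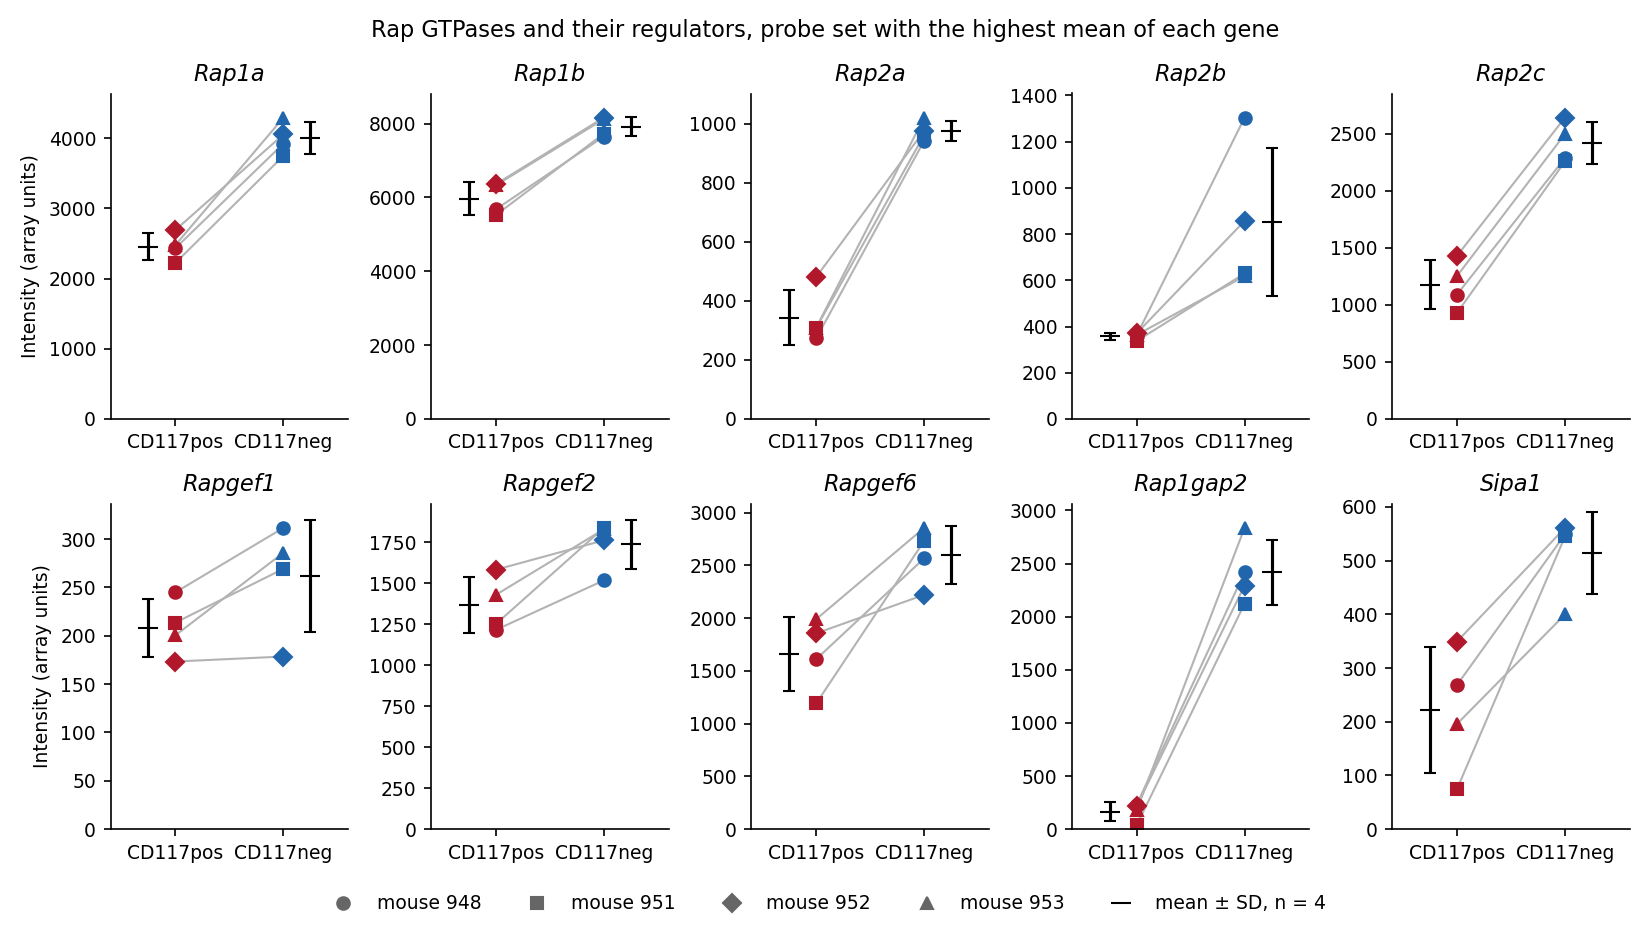
Intensity (array units, vertical axis, starting at 0) of each Rap gene in the CD117pos fraction (red, left) and the CD117neg fraction (blue, right), from the brightest probe set of each. Grey lines join the fractions of a mouse and black bars give mean ± SD (n = 4); only Rapgef1 and Rapgef2 have overlapping fractions.

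Rap1a and Rap1b encode nearly identical Rap1 proteins, the integrin-activating members. Rap1a (Entrez gene 109905) measured 2435, 2224, 2694 and 2479 in the CD117pos arrays of mice _948, _951, _952 and _953, against 3925, 3751, 4056 and 4295 in the CD117neg arrays, always given in this order of mice. The difference was -0.70 ± 0.11, a 1.63-fold lower level in CD117pos. The fractions stood clearly apart, and the 4 mice differed little, from -0.79 to -0.59. A second Rap1a probe set differed by -0.70 ± 0.16, but ranged from -1.01 in mouse _948 to -0.24 in mouse _951.

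Rap1b (Entrez gene 215449), the main Rap1 form of platelets, measured 5676.5, 5521, 6358 and 6328 in CD117pos and 7651, 7727, 8162 and 8123 in CD117neg arrays. The difference was -0.41 ± 0.11, the smallest among the GTPases, and nearly the same in every mouse (SD over mice 0.06). All Rap1b probe sets list the same source sequence, yet the dimmer ones gave larger differences of -0.76 ± 0.13 and -1.27 ± 0.23, so that the 3 probe sets of this gene disagreed in size but not in direction. The mean of all Rap1b probe sets differed by -0.81. In the dimmest of the 3 the CD117pos array of mouse _951 was lowest, at 339, against 762 to 955 in the other CD117pos arrays.

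The Rap2 genes encode a separate branch whose effectors include the kinases TNIK, MINK1 and MAP4K4. Rap2a (Entrez gene 76108) measured 273, 308, 481 and 309 in CD117pos and 942, 962, 976 and 1020.39 in CD117neg arrays. Its difference of -1.50 ± 0.16, a 2.83-fold lower level, was the largest among the GTPases. Mouse _952, with the highest CD117pos value, had the smallest difference, -0.999, against -1.73 to -1.59 in the other mice. The dimmer Rap2a probe set, 18.1 ± 7.47 in CD117pos and 92.3 ± 38.7 in CD117neg arrays, differed by -1.63 ± 0.20. All 4 of its CD117pos values lay below the medians of their arrays, which limits the size of that difference.

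Rap2b (Entrez gene 74012) measured 361, 337, 370.0 and 363 in CD117pos arrays, a narrow range, against 1304, 629.5, 857 and 618 in CD117neg arrays. The fractions did not overlap, and the CD117neg level of mouse _948 was the highest. The difference was -1.15 ± 0.20, and in single mice -1.81, -0.87, -1.18 and -0.74. The other Rap2b probe sets gave smaller values. The one at 298 ± 51.8 in CD117pos and 388 ± 5.69 in CD117neg arrays differed by -0.38 ± 0.14, and the one at 62.5 ± 15.8 in CD117pos and 106 ± 16.6 in CD117neg arrays by -0.65 ± 0.12. The last, at 2.70 ± 1.28 in CD117pos and 3.20 ± 2.36 in CD117neg arrays, lay below the array median on all arrays; its difference of -0.03 is 1.12 away from that of the brightest. Averaging all Rap2b probe sets gave -0.55.

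Rap2c (Entrez gene 72065) measured 1089.99, 929, 1429 and 1251 in CD117pos and 2285, 2255, 2639.8 and 2496 in CD117neg arrays. The difference was -1.05 ± 0.12, a 2.07-fold lower level with separate fractions in all mice. The suffix of this probe set marks possible sequence sharing with other transcripts; the next one, without that mark, gave -0.83 ± 0.15, and the remaining one -1.36 ± 0.21.

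Of the exchange factors, Rapgef1 and Rapgef2 had the smallest differences of the 10 genes, while that of Rapgef6 was larger than that of Rap1b. Rapgef1 (Entrez gene 107746) encodes a factor brought to the membrane by Crk adaptors, and measured 245, 214, 173 and 200.5 in CD117pos and 312, 269, 179 and 286 in CD117neg arrays. The fractions overlapped and the difference was -0.29 ± 0.13, with mouse _952 near 0 (-0.04). After quantile normalisation the difference was -0.13, and -0.14 when both Rapgef1 probe sets were averaged. The other Rapgef1 probe set lay near the array medians, at 24.3 ± 3.19 in CD117pos and 25.1 ± 9.65 in CD117neg arrays, with a difference of 0.00 ± 0.15.

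Rapgef2 and Rapgef6 encode related exchange factors with a PDZ and a Ras-association domain. Rapgef2 (Entrez gene 76089, a single probe set) measured 1215, 1250.5, 1582 and 1429 in CD117pos and 1517, 1837, 1761 and 1829 in CD117neg arrays. The fractions overlapped, through mouse _952 in CD117pos and mouse _948 in CD117neg, and the difference was -0.34 ± 0.12. After quantile normalisation it was -0.13. Rapgef6 (Entrez gene 192786) measured 1611, 1192, 1857 and 1991 in CD117pos and 2569, 2733, 2222 and 2857 in CD117neg arrays. Its fractions did not overlap, and the difference of -0.66 ± 0.18 ranged from -1.19 in mouse _951 to -0.26 in mouse _952. The 4 dimmer Rapgef6 probe sets differed by -1.17 to -0.29, and in each of the 4 mouse _951 had the most negative difference. For the probe set at -0.29 the fractions overlapped, and mice _952 and _953 were higher in CD117pos, by 0.21 and 0.18.

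Of the GAPs, Rap1gap2 had the largest difference of the 10 genes, while Sipa1 lay within the range of the GTPases. Rap1gap2, a GAP for Rap1 known from human platelets, had a single probe set (Entrez gene 380711) at 229, 35.01, 216 and 177 in CD117pos and 2417, 2122, 2292 and 2836 in CD117neg arrays. The lowest CD117neg array was thus far above the highest CD117pos array. The means were 164 ± 88.8 in CD117pos and 2417 ± 304 in CD117neg, and the difference of -3.98 ± 0.36 corresponds to a 15.7-fold lower level. Larger falls were seen in 0.533% of all genes and in 1.14% of those with a mean of 100 or more. In single mice the difference was -3.31, -5.39, -3.32 and -3.89, the largest being that of mouse _951. Dropping that mouse's CD117pos array, with no block in the fit, gave -3.45.

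Sipa1, or SPA-1, encodes the main Rap GAP of blood cells, and mice that lack it develop a myeloproliferative disease. Its single probe set (Entrez gene 20469) measured 268, 74.6, 349 and 196 in CD117pos and 549, 545, 561 and 399.8 in CD117neg arrays. The fractions did not overlap, but CD117pos values were spread widely, with mouse _951 lowest. The difference was -1.31 ± 0.33, and -0.87 without mouse _951. In single mice it was -0.99, -2.63, -0.66 and -0.97.

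**Figure D2:**
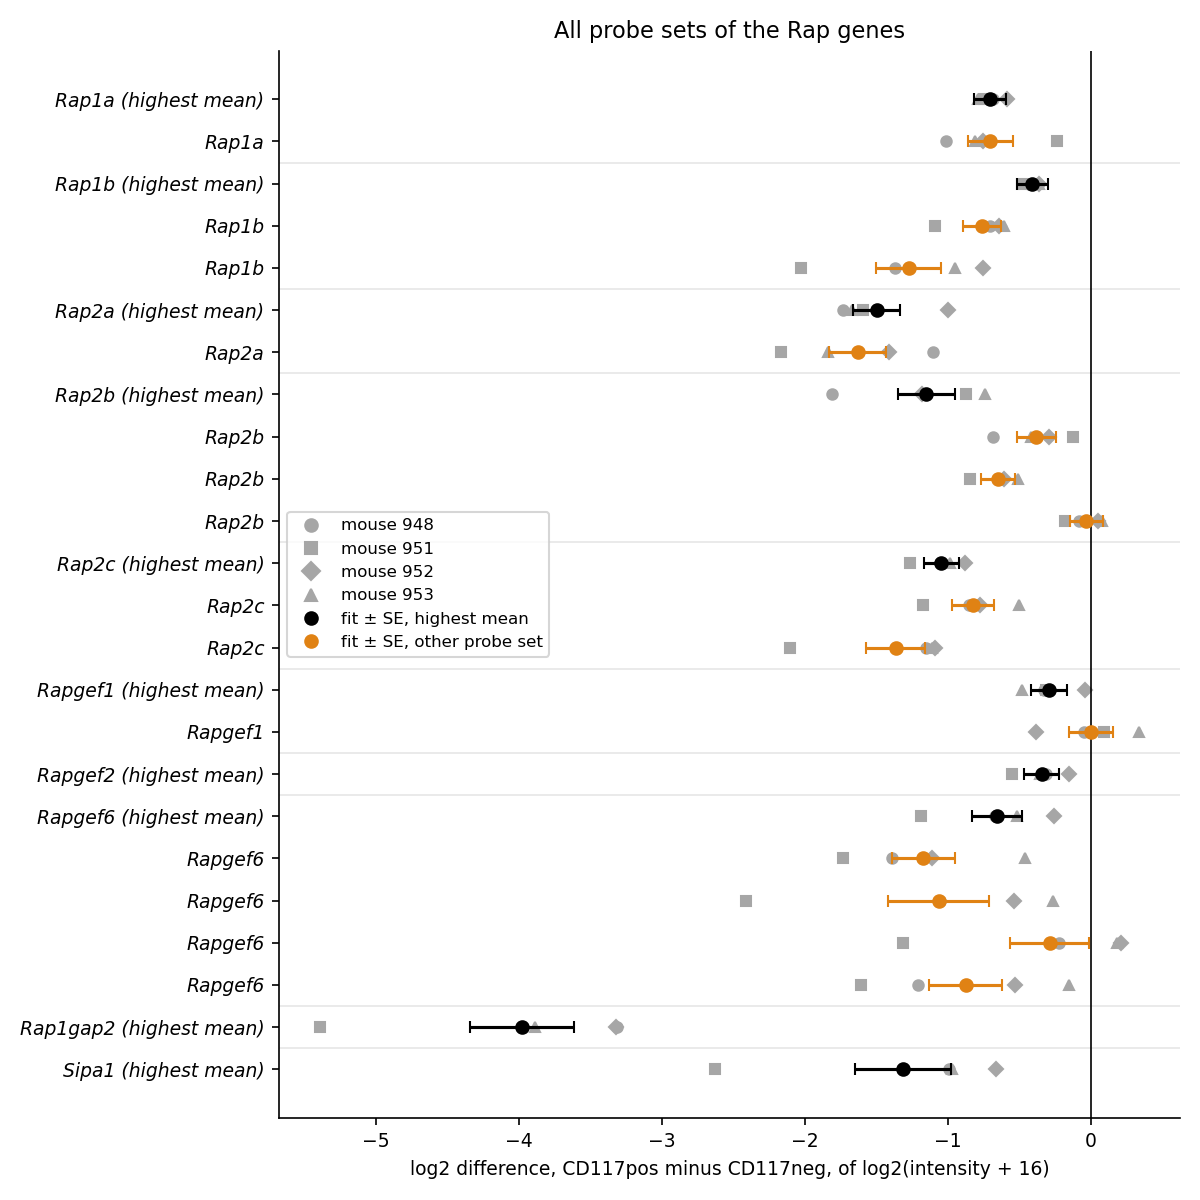
Difference between CD117pos and CD117neg (horizontal axis, log2 scale) for all 24 probe sets of the Rap genes, as the fitted value ± SE (black for the brightest probe set of a gene, orange for the others) with the 4 mice as grey symbols. Rap1gap2 lies far left of all others at -3.98. Mouse _951 (squares) is the most negative mouse for Rap1gap2, Sipa1 and Rapgef2 and for all Rap1b, Rap2c and Rapgef6 probe sets. It is also the most negative for the dimmer Rap2a probe set and for some dimmer Rap2b ones.

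At the level of probe sets, 14 of the 24 were past the threshold as lower (10.9% of all probe sets were) and 0 as higher (5.60%). Of the 14 GTPase probe sets 11 were, and of the 8 exchange factor probe sets 1. The fractions did not overlap for 19 of the 24 (15.0% of all probe sets, lower in CD117pos, and 8.08% higher). Only 1 value among the 24 probe sets lay at the floor of exactly 1, in the dim Rap2b probe set.

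Levels of the mice were compared within the same fit, in terms that the choice of genes did not use. Of the 10 genes, 0 passed a test of differences between mice (limma moderated F-test, adjusted p 0.748 to 0.909; 0 of 10 at an unadjusted p under 0.05), beside 0% of all genes after adjustment and 7.74% before it. The test averages over both fractions, so that it does not bear on how far the fraction difference varied between mice.

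**Figure D3:**
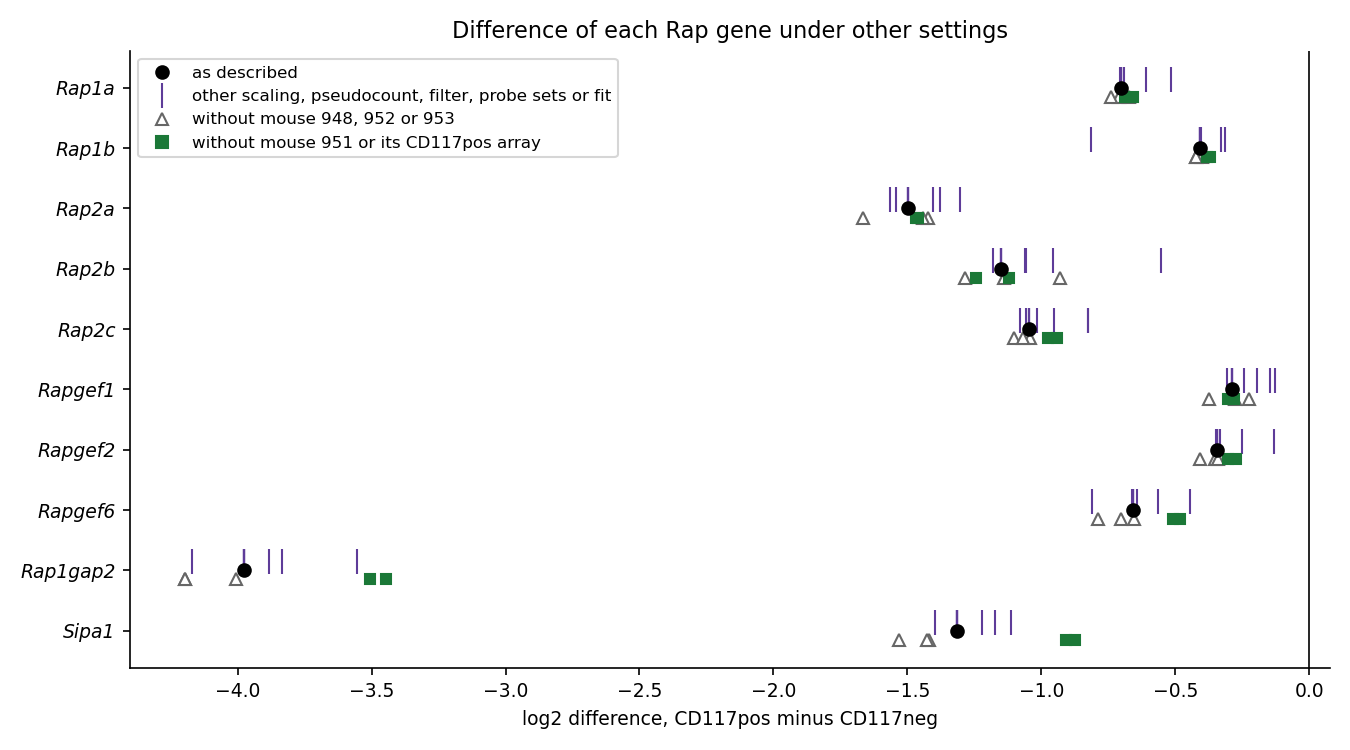
Difference between CD117pos and CD117neg of each Rap gene (horizontal axis, log2 scale) in the fit described (black) and under 15 other settings: purple bars for other scaling, pseudocounts, filters, probe sets or fits, triangles without mouse _948, _952 or _953, and green squares without mouse _951 or its CD117pos array. No value lies above 0; Rapgef1 and Rapgef2 come closest, at -0.13, and Sipa1 and Rap1gap2 move most without mouse _951.

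Genes of other cell types and of mature myeloid cells were read beside these values. Of 11 measured genes of mature monocytes and neutrophils 9 were lower in CD117pos by limma and 0 higher (11 and 0 at an unadjusted p under 0.05), and their summed intensity was 10037 to 29113 in CD117pos against 67054 to 74728 in CD117neg arrays. All 11 lay above the array median on at least 1 array, and Csf1r, the macrophage growth factor receptor gene, averaged 920.3 ± 603 in CD117pos and 7600 ± 1018 in CD117neg arrays. These mature myeloid genes moved the same way as the Rap genes above, and their part in the Rap differences was not tested. On the CD117pos array of mouse _951 Csf1r was at 244, Cd14 at 18.2 and S100a9 at 1252. The other CD117pos arrays gave 758 to 1696, 189 to 335 and 3807 to 6117 for these genes. Lyz2, Mmp8 and Mmp9 were not lowest on the array of mouse _951. Platelet and megakaryocyte genes, of interest for Rap1b and Rap1gap2, summed to 209.8 to 246 in CD117pos and 217 to 309.9 in CD117neg arrays. Of these 10 genes 1 was lower by limma, Clec1b (3 at an unadjusted p under 0.05), and 5 lay below the array median on all arrays. The platelet factor gene Pf4 averaged 28.4 ± 7.41 in CD117pos and 31.3 ± 9.71 in CD117neg arrays, close to the array medians. B cell genes summed to 154 to 298 in CD117pos and 248 to 385 in CD117neg arrays, and NK cell genes to 72.4 to 112 in CD117pos and 66.0 to 76.6 in CD117neg arrays. Erythroid genes summed to 63.8 to 227 in CD117pos and 82.9 to 110.3 in CD117neg arrays, and endothelial genes to 106 to 132 in CD117pos and 156 to 167 in CD117neg arrays. In these 4 lists 1 NK gene, Klra8, was higher by limma. Lower was 1 endothelial gene, Pecam1 (2 at an unadjusted p under 0.05 by limma). Of B cell and erythroid genes 0 passed by limma (0 also at an unadjusted p under 0.05). T cell genes summed to 72.1 to 579 in CD117pos and 127 to 173 in CD117neg arrays with 0 of 7 past the threshold (0 also at an unadjusted p under 0.05). Cd8a alone gave 537 on the CD117pos array of mouse _951, where Cd3 genes stayed low. The suffix of the Cd8a probe set marks possible sequence sharing with other transcripts. The part of Cd8a, or of the mature myeloid genes low on that array, in the low Rap1gap2 and Sipa1 values there was not tested.

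Genes around the 10 were taken from 6 lists of the pathway, written with earlier results of these data known; 61 of 65 listed genes were measured. By limma at an adjusted p under 0.05, 26 of them were lower and 2 higher in the CD117pos fraction and 33 did not pass, beside 12.9% lower and 7.53% higher among all genes. Among genes with a mean of 100 or more these shares were 22.4% and 13.3%. The median difference was -0.57, against -0.01 over all genes. Leaving out mouse _948 gave 9 lower and 1 higher, mouse _951 gave 30 and 4, mouse _952 gave 11 and 0, and mouse _953 gave 13 and 0. All 6 lists below name p-values of limma, adjusted over all probe sets. Because the lists were written with earlier results known, their counts and p-values are a description and no test of the lists.

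Other exchange factors mostly did not pass, with 0 of 12 lower (1 at an unadjusted p under 0.05) and 1 higher (3 at an unadjusted p under 0.05), and a median of 0.03. Rapgef3, which encodes the cAMP-activated factor Epac1, measured 1032, 2422, 814 and 1208 in CD117pos and 829.5, 344, 278 and 524 in CD117neg arrays. The CD117pos value was the higher one in all 4 mice, although the fractions overlapped, and its difference of 1.44 ± 0.38 did not pass (adjusted p = 0.053 by limma); it passed under 10 of 15 other settings. The 1 gene that rose was Rasgef1a, known for human RASGEF1A to act on Rap2, at a low level of 48.1 ± 21.0 in CD117pos and 18.4 ± 12.6 in CD117neg arrays (0.91 ± 0.15, adjusted p = 0.0131 by limma, chosen after its values were seen). That call ended without mouse _952, without mouse _953 and without the block, whether or not the CD117pos array of mouse _951 was kept. The difference was 1.45 with a pseudocount of 1, 0.44 with one of 64 and 0.57 when its probe sets were averaged.

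Among 8 other GAPs, 4 fell and 1 rose (4 and 2 at an unadjusted p under 0.05 by limma). Rasa3, a GAP for Ras and Rap1 known in mouse platelets, measured 756, 394, 733 and 697 in CD117pos and 1847, 1654, 1868 and 1979 in CD117neg arrays (-1.53 ± 0.16, adjusted p = 0.0038 by limma). Sipa1l2, a relative of Sipa1, averaged 356 ± 143 in CD117pos and 972 ± 199 in CD117neg arrays (-1.46 ± 0.18, adjusted p = 0.00564), and Rasa4 26.4 ± 6.92 in CD117pos and 105 ± 26.6 in CD117neg arrays (-1.50 ± 0.21, adjusted p = 0.00812, a call that ended without mouse _952). The Rasa4 difference was -0.89 with a pseudocount of 64 and -0.83 when its probe sets were averaged. Sipa1l3 also fell (-0.76 ± 0.16, adjusted p = 0.0262, named after its values were seen), a call that held under 8 of 15 other settings; it differed by -0.45 with no block and the CD117pos array of mouse _951 left out. The related Sipa1l1 ran the other way, at 250.3, 893, 169.9 and 218 in CD117pos and 119, 177, 84.5 and 101 in CD117neg arrays (1.28 ± 0.25, adjusted p = 0.0226, named after its values were seen). Its call ended without mice _948, _952 or _953, without the block, with pseudocounts of 1 or 64 and when its probe sets were averaged, which gave 0.39. The CD117pos array of mouse _951 was the highest, and the difference was 0.77 with that array and the block left out.

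Adaptors upstream of Rapgef1 fell in 6 of 8 cases and rose in 0, with a median of -0.87. At an unadjusted p under 0.05 by limma these counts were 7 and 0. Dok2, an adaptor of tyrosine kinase signalling, averaged 120.2 ± 48.5 in CD117pos and 557 ± 241 in CD117neg arrays (-2.04 ± 0.13, adjusted p = 0.000878 by limma). The ubiquitin ligase genes Cbl and Cblb differed by -1.02 ± 0.22 and -0.98 ± 0.22; both calls ended after quantile normalisation, when 1 was the pseudocount and when any mouse but _951 was left out, and that of Cbl also when its probe sets were averaged.

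Rap effectors fell in 8 of 17 cases and rose in 0 (0 also at an unadjusted p under 0.05), with a median of -0.83. Rassf5, whose product RAPL links Rap1 to integrins in lymphocytes, measured 1765, 724, 1424 and 1842 in CD117pos and 4468, 3959, 4239.9 and 4785 in CD117neg arrays (-1.67 ± 0.21, adjusted p = 0.00613 by limma). Apbb1ip, encoding RIAM, which joins Rap1 to talin, averaged 50.9 ± 23.7 in CD117pos and 207 ± 64.02 in CD117neg arrays (-1.78 ± 0.37, adjusted p = 0.0252); the call ended without mouse _948, _952 or _953 and with a pseudocount of 1, and the difference was -1.02 when its probe sets were averaged. Afdn, the gene of the junction protein afadin, differed by -1.47 ± 0.17 (adjusted p = 0.00441), and by -0.55 when its probe sets were averaged. The Rap2 effector genes Tnik, Mink1 and Map4k4 did not pass, with differences of 0.03, -0.72 and -0.57. Tnik, at 16.3 ± 7.95 in CD117pos and 14.9 ± 3.51 in CD117neg arrays, lay below the array median on all arrays.

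Genes of integrin activation fell in 8 of 12 cases and rose in 0, with a median of -0.87. With an unadjusted p under 0.05 by limma the counts were 9 and 0. Fyb, encoding the adaptor ADAP, averaged 17.3 ± 8.08 in CD117pos and 1828 ± 231 in CD117neg arrays (-5.81 ± 0.16, adjusted p = 0.000166 by limma). All 4 CD117pos values of Fyb lay below the medians of their arrays, so that the size of its difference depends on the pseudocount, at -6.75 with 1 and -4.54 with 64. Itgal, the α chain of LFA-1, averaged 646 ± 77.6 in CD117pos and 3265 ± 389 in CD117neg arrays (-2.31 ± 0.11, adjusted p = 0.000382). Itgam, the α chain of Mac-1, averaged 76.6 ± 46.0 in CD117pos and 488 ± 395 in CD117neg arrays (-2.39 ± 0.44, adjusted p = 0.0182). The Itgam call ended without mouse _948 or _952 and with a pseudocount of 1. Genes that attach the lipid anchor to Rap or process Rap afterwards, namely Fnta, Pggt1b, Rce1 and Icmt, did not pass in 4 of 4 cases (0 also at an unadjusted p under 0.05). Rce1, with the largest difference, averaged 207 ± 59.2 in CD117pos and 179.9 ± 19.7 in CD117neg arrays (0.15 ± 0.16, adjusted p = 0.607 by limma). Its difference was 0.06 to 0.32 under the other settings.

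**Figure D4:**
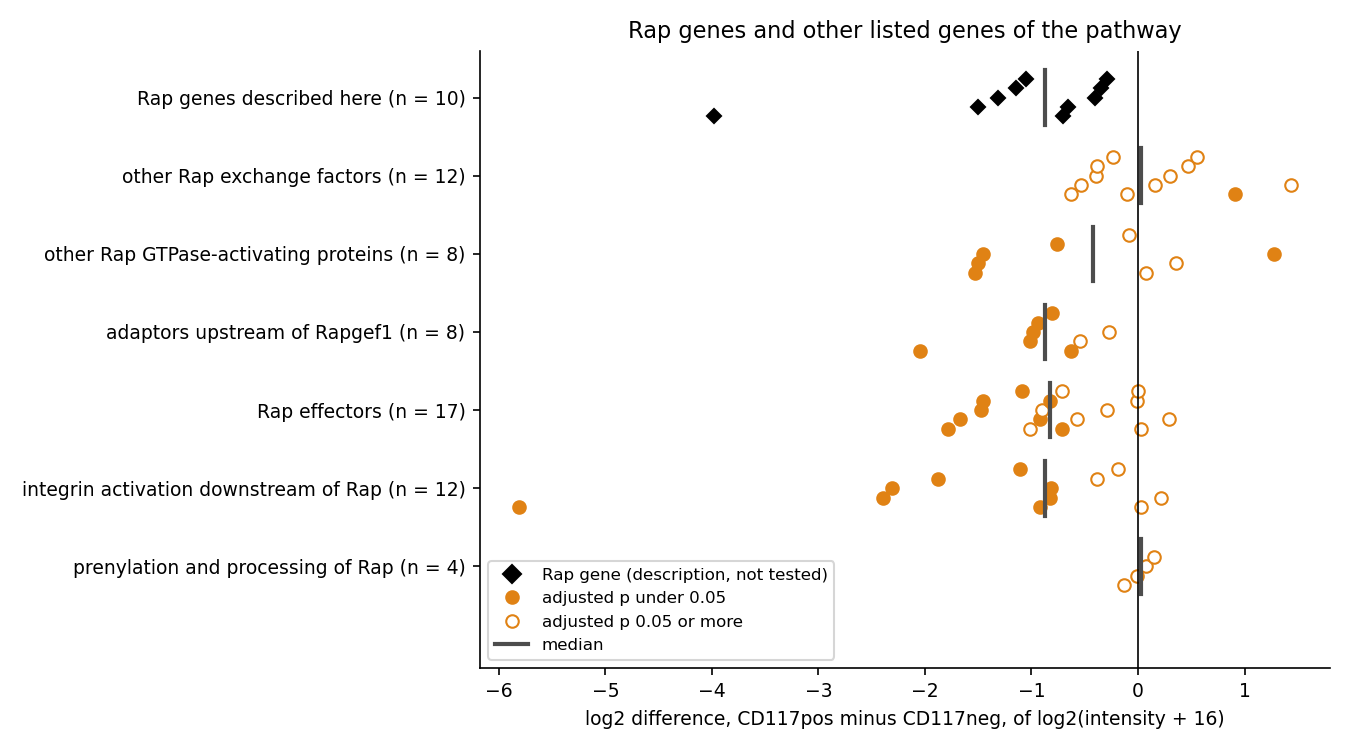
Difference between CD117pos and CD117neg (horizontal axis, log2 scale) of the 10 Rap genes (black diamonds) and of 61 other listed genes of the pathway, with filled circles for adjusted p under 0.05 and vertical bars for list medians. Effectors, adaptors and integrin genes lie mostly left of 0, other exchange factors on both sides, and the prenylation genes near 0.

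Rap1gap2 was also compared with the 8534 other genes of mean intensity 100 or more by Pearson's correlation of log2 values over the 8 arrays. The 3 highest were Pqlc3 (0.999), Prex1, a Rac exchange factor gene (0.999), and Rasa3 (0.999), and within fractions the correlations were 0.991, 0.993 and 0.992. The arrays fall into 2 clusters by fraction and the array of mouse _951 is low for all of these genes, so the values describe likeness only. Among the other Rap genes the correlation with Rap1gap2 within fractions ran from -0.01 for Rapgef1 to 0.88 for Sipa1. No Rap gene rose, so that no such comparison was made for a rising one.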

How the data were processed

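Per the labels' protocols, polyA RNA of sorted cells was amplified in a two-cycle Affymetrix labelling and hybridised, 1 sample an array. Each deposited value was a probe set's linear intensity, as its range and floor of 1 show; the sources used here do not say how the authors summarised and scaled it. The 8 arrays were used as deposited, and their number limits the precision.

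The members, gene lists, motifs and alternatives were chosen with earlier results of these data known. Probe sets were named from the platform annotation: 34945 had 1 symbol, 932 several and 9160 none, and 64 controls were left out. Of the named ones, 34741 matched a RefSeq gene table, which changed 0 symbols. Listed genes with no probe set of their own symbol were not analysed here.

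Values were transformed as log2(intensity + 16) and fitted over 45037 probe sets with limma 3.58.1 in R 4.3.3 (lmFit, eBayes, two-sided, the mouse as a block). Calls were made at 0.05 after Benjamini-Hochberg adjustment over these probe sets. The fit was also run on simulated data with independent noise and known changes. Those data held no mouse effect and no outlying array, so the run does not bear on either. The block follows from each mouse giving both fractions: deviations from fraction means correlated at 0.21, 0.22, 0.27 and 0.12 across genes within mice _948, _951, _952 and _953, and at most at 0.11 between mice. Genes named are all 10 members, Kit, and per pathway list up to 3 genes with the largest change past the threshold whose mean reaches 100 in a fraction (or the largest difference where none passed), besides those said to be chosen otherwise and markers. Alternatives covered scaling, pseudocounts of 1 and 64, a minimum mean of 64, the choice of probe sets, an intensity trend, no block and leaving out mice or 1 array. Plots used matplotlib 3.10.9 (Python 3.11.15).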

Additional observations from a re-analysis of the deposited data

Results flagged for a closer look

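Of 30 sets of 4 values examined (the levels of each Rap gene in each fraction and its difference in each mouse), 3 held a value far from the others by Dixon's criterion, which chance meets in about 1 of 20 sets. The Rap1gap2 intensity on the CD117pos array of mouse _951 was 35.01, far below the other CD117pos arrays. The Sipa1 log2 difference in mouse _951 was -2.63, far below that of the other mice. The Sipa1 intensity on the CD117neg array of mouse _953 was 399.8, far below the other CD117neg arrays. The sets share arrays and genes, so they are not independent of each other.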

How the results depend on the processing

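The difference of each of the 10 Rap genes was recomputed under 15 alternatives. All 150 values stayed below 0, and 141 of them moved by less than the SD over mice. Many of these values could not move. The minimum mean of 64, 1 probe set per gene, the intensity trend and no block with all arrays kept leave each difference unchanged. Leaving out probe sets of shared sequence changes only that of Rap2c. The SD over mice is also a wide measure for Rap1gap2 (0.98) and Sipa1 (0.89), where mouse _951 stood apart. The count of Rap genes past the threshold as lower was 6; leaving out a mouse gave 3 to 6, without the replicate block it was 8, and under the other alternatives it was 4 to 8, while 0 were higher under each of the 15. Over all probe sets 2524 were higher and 4892 lower. Leaving out a mouse moved these counts to between 456 and 3575 and to between 1894 and 5571. With a pseudocount of 1 they were 1134 and 2930, with 1 probe set per gene 1504 and 2511, and with probe sets averaged by gene 1485 and 2365, where fewer features were tested. After quantile normalisation 3945 were higher, and 3900 with no block and the CD117pos array of mouse _951 left out. Higher calls were 34.0% of all calls as deposited, 51.4% after quantile normalisation and 45.1% after centring; the median of all genes moved by 0.08 and 0.09. Of the other pathway genes, 2 were higher and 26 lower: higher were 5 after quantile normalisation, 1 with a pseudocount of 1 or 64 or without the replicate block, 4 with that array and the block left out, and 0 to 4 without a mouse; lower were 14 with a pseudocount of 1 and 9 to 30 without a mouse. Under each alternative that kept the block, 0 Rap genes passed the test between mice. Where no cause is given, the cause was not tested. Low intensities limit the dim Rap2b and Rapgef1 probe sets, which lie near or below array medians, and the dimmer Rap2a probe set in CD117pos arrays.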
